A study of Columba livia with 12 samples.

Results

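miR-205 and miR-31 were followed at 4 ages in liver small RNA of a domestic pigeon breed, the white king (Columba livia). Of 324 mature names that carry the pigeon prefix in the deposited table, 5 belong to these families, chosen by name: cli-miR-205a-5p, cli-miR-205a-3p, cli-miR-205b-5p, cli-miR-31-5p and cli-miR-31-3p, written below without the prefix. The whole table has 1039 names. The birds were squabs of 1 day (1d), 14 days (14d) and 28 days (28d) and parents of 2 years (2y), untreated as far as the labels say, with 3 libraries per age and 1 pigeon per library. The labels call the squabs mixed in sex, do not give the sex of the sequenced birds, and in free text name 2 and 3 days for 1d replicates 2 and 3.

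miRNAs are short RNAs cut from a hairpin. Usually 1 of the 2 arms (5p or 3p) is kept in the Argonaute protein, where its seed pairs with target mRNAs that are then repressed. In mammals miR-205 is known from stratified and glandular epithelia, where it holds down the ZEB transcription factors that drive loss of epithelial character. miR-31 is known in mammals from skin, gut and other epithelia and for targets that act in cell adhesion and invasion. Hepatocytes, the main cells of the liver, are not a known site of high expression of either, while the lining of the bile ducts is one of the epithelia in the organ.

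Libraries held 3100273 to 9393075 counts, a ratio of 3.03, and 345 names had enough counts for the fit. Levels are CPM, the count times 1000000 over the library total after scaling by the trimmed mean of M values (TMM). The TMM factors lay between 1.30 and 1.96 at 1d and 14d and between 0.511 and 0.954 at 28d and 2y. Those of 28d spread widest, on both sides of those of 2y. A count of 0 allows up to 3 counts, or 0.326 to 1.89 CPM depending on the library, and floors and intervals cover counting error only. miR-148a-3p, an abundant hepatocyte miRNA, averaged 103733 ± 21773, 43351 ± 5999, 348523 ± 148688 and 259005 ± 16206 CPM (SD, n = 3) at 1d, 14d, 28d and 2y. This miRNA was therefore abundant at every age, though 1 miRNA does not show which cells a library holds.

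miR-205a-5p and miR-31-5p were highest at 14d, intermediate at 1d and lowest at 28d and 2y. Both had been picked out with these levels known, so their differences between ages are described here without a test. miR-205a-5p had 276, 288 and 362 CPM at 1d. At 14d it had 2250, 486 and 518 CPM, at 28d 2.67, 130.3 and 44.8 CPM, and at 2y 31.01, 32.9 and 17.6 CPM, in the order of the replicates. The 14d range lay above the 1d range and both lay above all 28d and 2y values, while the 2y values fell inside the wide 28d range. Means were 309 ± 46.7, 1085 ± 1009.6, 59.3 ± 65.0 and 27.2 ± 8.35 CPM (SD, n = 3). Among pigeon names miR-205a-5p ranked between 38 and 71 in the libraries of 1d and 14d and between 91 and 188 in those of 28d and 2y.

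miR-31-5p was lower than miR-205a-5p in all libraries but 28d replicate 1. It had 28.5, 30.0 and 41.4 CPM at 1d and 195, 54.9 and 59.4 CPM at 14d. At 28d it had 13.6, 16.1 and 8.84 CPM, and at 2y 18.6, 13.9 and 14.4 CPM. The order of ages was again 14d, then 1d, then 2y and 28d, and the last pair overlapped. Means were 33.3 ± 7.06, 103 ± 79.5, 12.8 ± 3.69 and 15.6 ± 2.62 CPM (SD, n = 3). In counts the values behind these levels ran from 14 to 952, so the 28d level of replicate 3 rests on 14 counts.

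**Figure D1:**
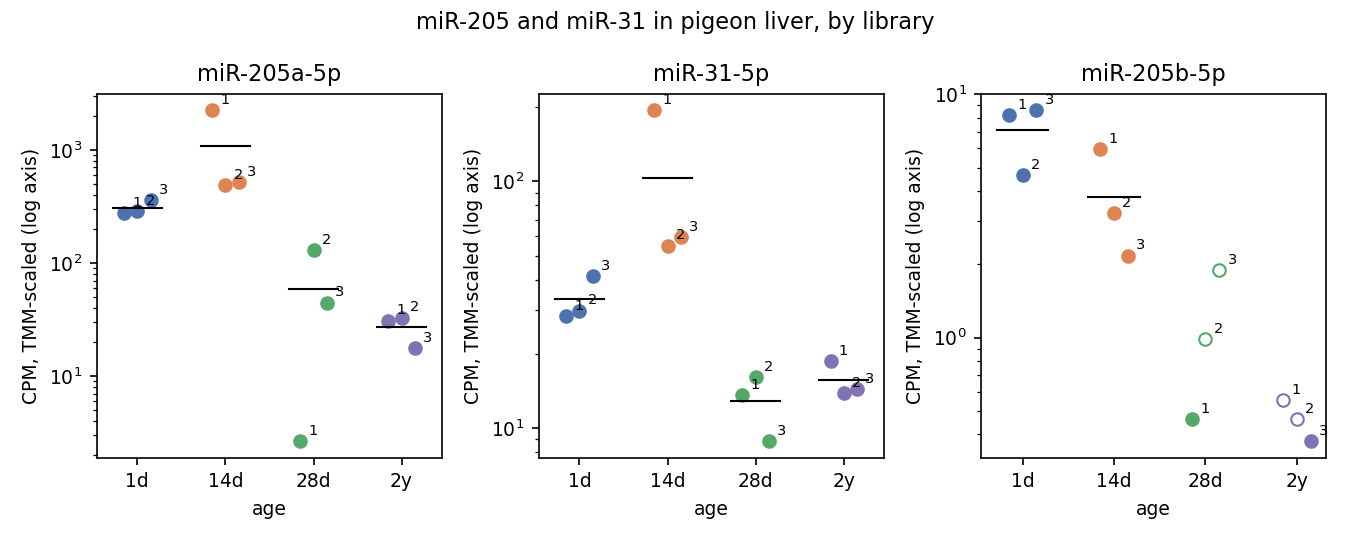
CPM on a log axis (TMM-scaled) of miR-205a-5p, miR-31-5p and miR-205b-5p in each library, with the replicate number beside each point and ages on the horizontal axis. Black lines are means over 3 libraries where every library had a count, and open circles mark libraries with no count, drawn at the floor of 3 counts. In the first 2 panels 14d replicate 1 is the highest point, at 2250 and 195 CPM.

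A single bird carried much of the 14d peak. 14d replicate 1 had 2250 CPM of miR-205a-5p and 195 CPM of miR-31-5p, while replicates 2 and 3 had 486 and 518 CPM of the first and 54.9 and 59.4 CPM of the second. The fitted log2 fold change of miR-205a-5p for 14d against 1d was 1.81 ± 1.01 (SE), a 3.51-fold higher level. It was 1.45-fold without 14d replicate 1 and 2.32-fold with no filter on low counts. For miR-31-5p it was 1.63 ± 0.48, or 3.09-fold, and 1.53-fold without that library. The median over all 345 tested miRNAs was 0.49 in this comparison. The main fit gave the largest rises of the settings that differ by more than 1 left-out library. The other 6 gave log2 fold changes of 1.22 to 1.73 for miR-205a-5p and 1.07 to 1.44 for miR-31-5p. In them the median of the 345 miRNAs lay between 0.03 (no filter) and 0.47 (replicate number as a block).

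Between 14d and 28d both miRNAs were lower at the later age, and miR-205a-5p by more. miR-205a-5p had a log2 fold change of -4.20 ± 1.12 (SE), an 18.3-fold lower level. Leaving out 1 library changed it to 9.42-fold (14d replicate 1), 11.9-fold (28d replicate 1) or 44.9-fold (28d replicate 2). miR-31-5p had -2.99 ± 0.51, or 7.97-fold lower, and 4.77-fold without 14d replicate 1. The median of all tested miRNAs was -0.28. With library totals in place of TMM the levels were 47.2-fold and 16.1-fold lower, and the median of all tested miRNAs then moved by -1.01 in log2.

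Between 28d and 2y the libraries of both miRNAs overlapped. The log2 fold change of miR-205a-5p was -1.12 ± 1.00 (SE) for 2y against 28d, and 0.27 without 28d replicate 2. That of miR-31-5p was 0.28 ± 0.48. Against the first day, 2y livers had 11.3-fold less miR-205a-5p (log2 fold change -3.50 ± 1.09) and 2.13-fold less miR-31-5p (-1.09 ± 0.48). With library totals these were 28.3-fold and 5.40-fold. Each SE rests on a spread estimated over all 12 libraries, not only those of the 2 ages compared. With only the 6 libraries compared, the SE of miR-205a-5p was 0.29 for 2y against 1d and 0.54 for 14d against 1d. It was 1.42 for 28d against 14d and 1.12 for 2y against 28d. All 4 comparisons come from the same 12 libraries, and neighbouring ones share an age.

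**Figure D2:**
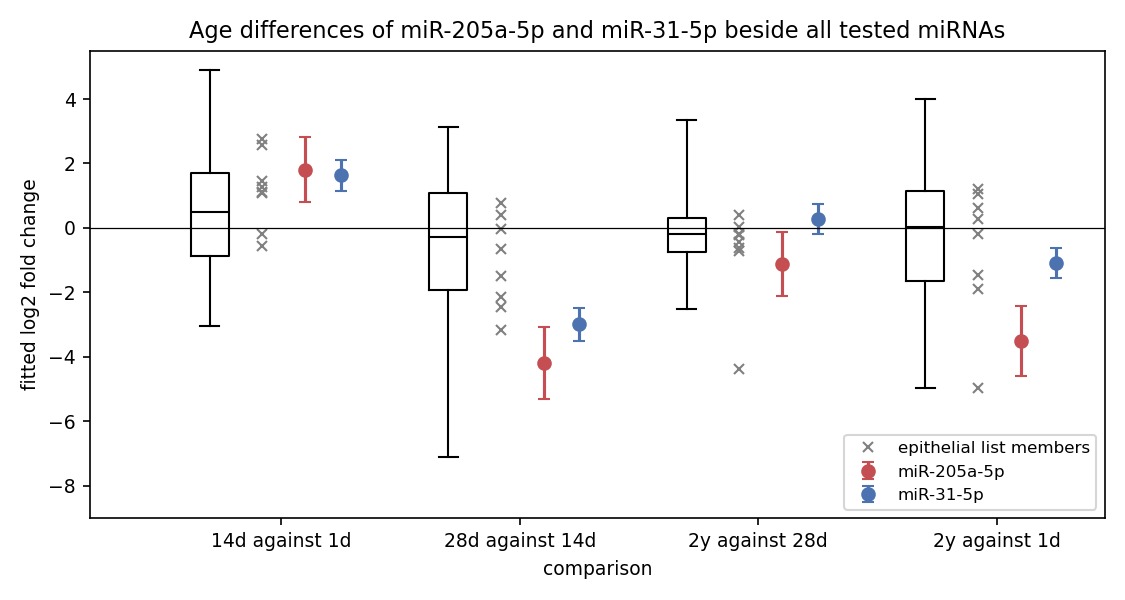
Fitted log2 fold changes (vertical axis) of miR-205a-5p and miR-31-5p with SE in 4 comparisons of ages, later age over earlier. Boxes give the median and quartiles of all 345 tested miRNAs with whiskers at the 5th and 95th percentiles, and crosses are the 8 tested members of the epithelial list. Both miRNAs lie above 0 for 14d against 1d and below 0 for 28d against 14d, at -4.20 and -2.99.

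Because library totals and TMM give different sizes of fall, the ratio of the 2 miRNAs within a library is informative, since scaling cancels in it. Adapter ligation favours some sequences, so the ratio is read between libraries and not as a ratio of molecules. In the 6 libraries of 1d and 14d there were 8.72 to 11.6 counts of miR-205a-5p per count of miR-31-5p. At 28d the ratio was 0.197 in replicate 1, 8.08 in replicate 2 and 5.07 in replicate 3. At 2y it was 1.66, 2.38 and 1.22. All 28d and 2y ratios lay below those of 1d and 14d, and 28d replicate 1 was the only library with fewer counts of miR-205a-5p than of miR-31-5p.

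The 95% exact (Clopper-Pearson) intervals were 7.98 to 9.54 in 14d replicate 3 and 1.85 to 3.08 in 2y replicate 2, which hold the lowest ratio of the younger ages and the highest ratio of 2y. In 28d replicates 2 and 3 they were 5.995 to 11.1 and 2.83 to 9.74, which reach into the range of the younger ages. They were 0.120 to 0.309 in 28d replicate 1, which rests on 23 counts of miR-205a-5p and 117 of miR-31-5p. The mean log2 ratio differed by 0.04 for 14d against 1d and by -2.47 for 2y against 1d. For 28d against 14d it differed by -2.26, and by -0.59 without 28d replicate 1. For 2y against 28d it differed by -0.25, by -1.92 without 28d replicate 1, by 0.76 without 28d replicate 2 and by 0.42 without 28d replicate 3.

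**Figure D3:**
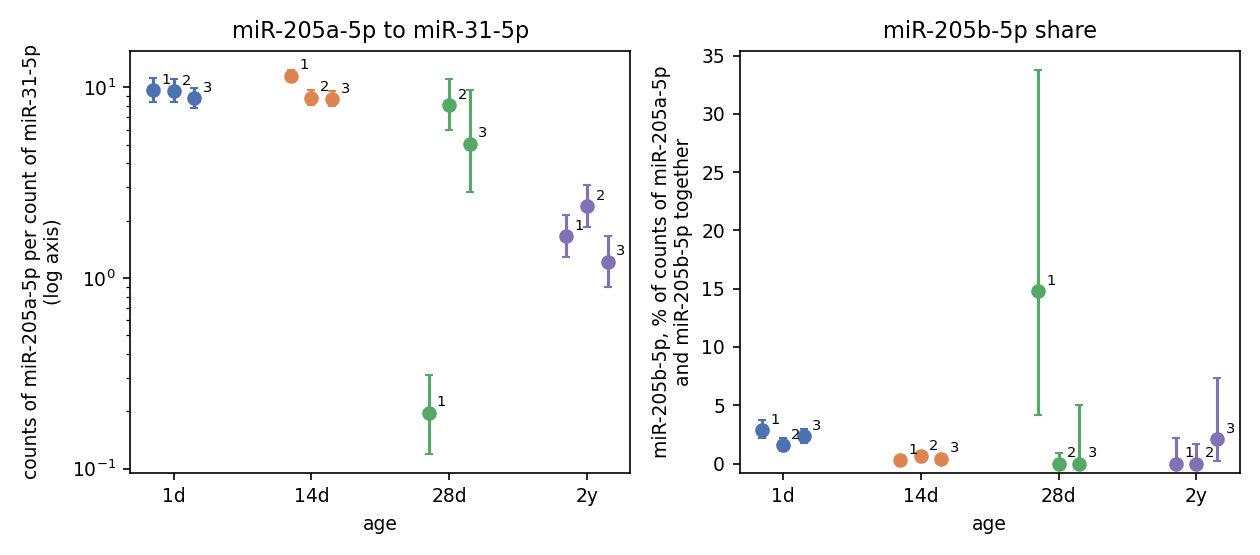
Left, counts of miR-205a-5p per count of miR-31-5p in each library on a log axis; right, miR-205b-5p as a percentage of the counts of miR-205a-5p and miR-205b-5p, both with 95% exact intervals and the replicate number beside each point, by age. The ratio lies between 8.72 and 11.6 at 1d and 14d and between 1.22 and 2.38 at 2y, and the share is lower at 14d than at 1d.

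Over the 12 libraries log2 CPM of the 2 miRNAs had a Pearson r of 0.84 and a Spearman rho of 0.89, given as a description because the ages set both. Without the 2 libraries farthest from the median of miR-205a-5p, which were 28d replicate 1 and 14d replicate 1, r was 0.87 and rho 0.85. Within ages they did not always move together. 14d replicate 1 lay 1.44 above its age mean in log2 for miR-205a-5p and 1.18 above it for miR-31-5p. 28d replicate 1 lay at -3.12 from it for miR-205a-5p and 0.12 above it for miR-31-5p. The deviations of the 12 libraries from their age means had r = 0.39 and rho = 0.52.

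miR-205b-5p, a second copy of the family under the pigeon names, was far rarer, and it passed the filter only through its counts at 1d and 14d. It had 58, 35 and 62 counts at 1d, 29, 29 and 20 counts at 14d, and then 4 counts in 28d replicate 1, 2 counts in 2y replicate 3 and none in the other 4 libraries of those ages. In CPM it averaged 3.79 ± 1.94 at 14d and 7.15 ± 2.18 at 1d (SD, n = 3), and the ranges overlapped. Its log2 fold change for 14d against 1d was -0.92 ± 1.11 (SE), and -1.54 without 14d replicate 1, while miR-205a-5p had 1.81. Of the counts of both copies miR-205b-5p made up 0.263, 0.665 and 0.418% at 14d and 2.88, 1.59 and 2.32% at 1d, without overlap. At 28d and 2y the counts were too few to place the share, with 14.8% (95% exact interval 4.19 to 33.7%) in 28d replicate 1 and 0 of 396 counts in replicate 2, which allows up to 0.758%. The labels do not say how reads that match both copies were counted, so the split between them is uncertain.

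The 3p arms were at the edge of detection and did not pass the filter. miR-205a-3p had 4 counts in all, 2 at 1d and 2 at 14d, or 0.0144% of the counts of both arms (95% exact interval 0.00392 to 0.0368%). At 28d it had 0 of 490 counts, which allows up to 0.612%, and at 2y 0 of 476, which allows up to 0.630%. These shares and floors hold for the pigeon names only. A further 39 counts lay under conserve-cli-miR-205a-3p, with 3 in 28d replicate 3 and 3 in 2y replicate 1. miR-31-3p had 21 counts in all, 13 of them at 14d, or 0.660% of both arms (0.409 to 1.01%). By age its share was 0.412, 0.650, 0.552 and 1.47% at 1d, 14d, 28d and 2y, with intervals that overlapped. The 5p arm thus held nearly all counts of both hairpins in these livers, which is the arm known as the main one in other vertebrates.

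The other epithelial miRNAs of the same libraries did not share 1 course. The list held 11 pigeon names of miR-200, miR-429, miR-182, miR-183 and miR-96, of which 8 could be tested. Adjusted p values below are those of edgeR (quasi-likelihood test), with the Benjamini-Hochberg method applied over all 345 miRNAs. This list and those of other cell types were chosen with earlier results of these data known. Their p values and counts of calls are therefore descriptive. For 14d against 1d 3 of the 8 rose and 0 fell, against 16.8% and 14.2% of all tested miRNAs. At an unadjusted p under 0.05 also 0 were lower (62 of all 345 tested), and DESeq2 called 1 lower (67 of 345). Their median log2 fold change was 1.20 and that of all tested miRNAs 0.49. With no filter on low counts 0 of the list rose, where 15 of all 937 tested rose.

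miR-200 and miR-429 come from 1 cluster and, like miR-205, are known to repress the ZEB factors in mammals. miR-200b-3p was at 350, 250.5 and 285 CPM at 14d and at 86.1, 109 and 125 CPM at 1d, a rise of 2.77-fold (adjusted p = 0.00709). miR-200a-3p rose 2.10-fold (adjusted p = 0.0348), with 263 ± 57.3 CPM at 14d and 125 ± 19.9 CPM at 1d (SD, n = 3). This call was lost with library totals (1.70-fold, adjusted p = 0.300), with relative log expression (1.75-fold, adjusted p = 0.0941) and in 9 of 12 refits without 1 library, those of 1d, 14d and 2y. It was also lost with no filter and with replicate number as a block in the fit. The minor arm miR-200b-5p rose 6.80-fold (adjusted p = 0.00404). miR-429-3p averaged 102 ± 15.1 CPM at 14d and 115 ± 23.3 CPM at 1d and did not pass (adjusted p = 0.719).

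For 28d against 14d 0 of the 8 rose and 3 fell, against 15.7% and 12.5% of all tested miRNAs, and the median log2 fold change was -1.08 against -0.28 over all tested. At an unadjusted p under 0.05 1 was higher (71 of all 345 tested), and DESeq2 called 0 higher (60 of 345). 2 of the falls were in the cluster of miR-183, miR-96 and miR-182, known from sensory and other epithelia. miR-182-5p fell 4.42-fold (25.4 ± 8.75 CPM at 28d and 112 ± 57.9 CPM at 14d, adjusted p = 0.0148), and miR-183-5p fell 5.47-fold (2.93 ± 0.887 CPM at 28d and 16.1 ± 11.8 CPM at 14d, adjusted p = 0.0142). The call of miR-182-5p was lost without 14d replicate 1 or 28d replicate 2. That of miR-183-5p was lost without 14d replicate 1 or 28d replicate 3, with no filter and with only the 6 libraries compared. The 28d levels of miR-183-5p rest on 20, 12 and 4 counts. miR-200b-5p fell 2.84-fold (adjusted p = 0.0485), a call lost in 11 of 12 refits without 1 library, all but that without 2y replicate 1. This call was also lost with no filter, with only the 6 libraries compared and with replicate number as a block in the fit. The count of falls was 6 with library totals, where 98 of all 345 tested fell. It was 1 with no filter (19 of 937) and 1 in a fit of only the 6 libraries (31 of 345). It was 0 without 14d replicate 1 (23 of 385) and 1 without 28d replicate 2 (26 of 409) or 28d replicate 3 (26 of 410). 14d replicate 1 had the highest level of miR-182-5p and of miR-183-5p too, at 179 and 29.7 CPM.

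For 2y against 1d 1 of the 8 rose and 1 fell, against 14.5% and 13% of all tested miRNAs. With library totals 0 of the 8 rose and 5 fell, where 12 of all 345 tested rose and 110 fell. The rise was that of miR-200a-3p, 2.30-fold (adjusted p = 0.0198), with 287 ± 26.8 CPM at 2y and 125 ± 19.9 CPM at 1d. It did not pass without 1d replicate 1, 1d replicate 2, 2y replicate 2 or 2y replicate 3, nor with no filter, and its log2 fold change was -0.15 with library totals against 1.20 with TMM. The fall was that of miR-183-5p, 3.75-fold (adjusted p = 0.0352). It did not pass when any 1 library of 1d or 2y, or 14d replicate 2, was left out, nor with no filter or with replicate number as a block in the fit. The count of falls was 3 without 28d replicate 1, where 56 of all 401 tested fell. For 2y against 28d edgeR called 0 of the 8 in either direction, and 0 of all 345. At an unadjusted p under 0.05 1 member was lower (29 of all 345 tested). DESeq2 called 0 of the 8, and 7 higher and 10 lower of all 345.

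**Figure D4:**
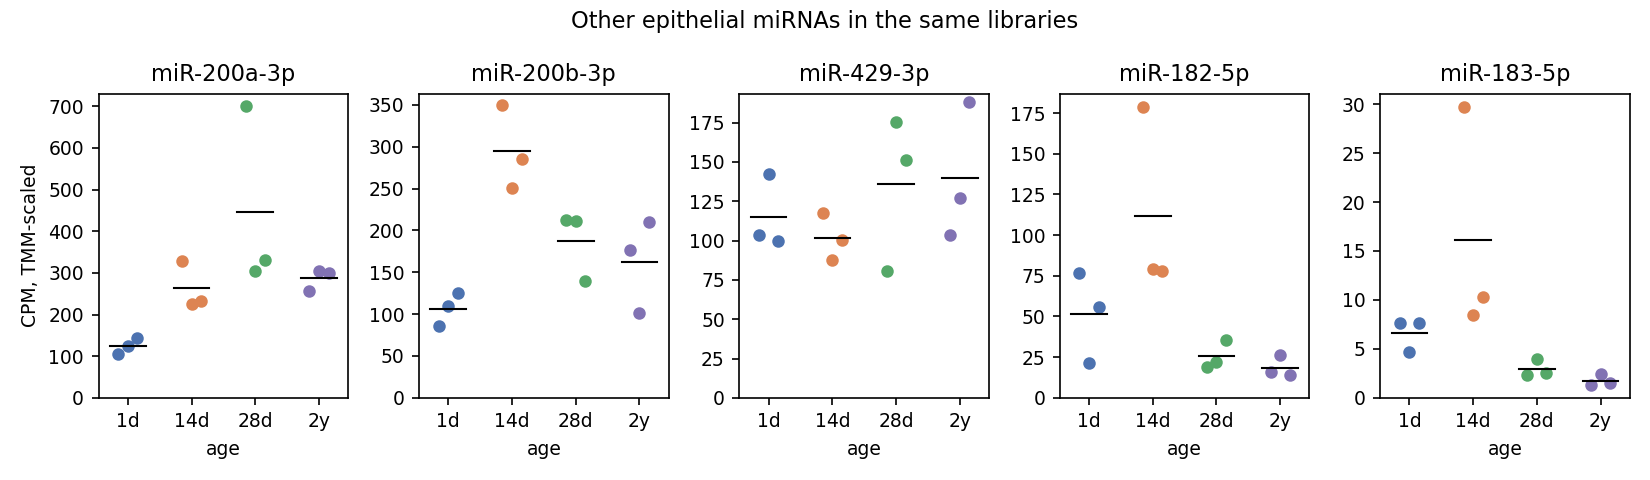
CPM (TMM-scaled, linear axes from 0) of 5 other epithelial miRNAs in each library, by age, with black lines at the means over 3 libraries. miR-182-5p and miR-183-5p are highest in 14d replicate 1, at 179 and 29.7 CPM, whereas miR-200a-3p is highest in 28d replicate 1, at 701 CPM.

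Marker lists of other cell types were summed over the same libraries. In bulk liver a lower level of a miRNA from fewer cells of a type cannot be told apart from less of it per cell. The summed epithelial list, without miR-205 and miR-31, lay at 398 to 451, 677 to 1054, 673 to 1033 and 567 to 736 CPM at 1d, 14d, 28d and 2y. Its 28d range overlapped its 14d range, where those of miR-205a-5p and miR-31-5p did not overlap. The sum was led by miR-200a-3p, with 41.7% of its counts. Taken singly, miR-182-5p, miR-183-5p, miR-200b-3p and miR-200b-5p also lay wholly lower at 28d than at 14d. For miR-96-5p this could not be told. Its count of 0 in 28d replicate 3 allows up to 1.89 CPM, and its lowest level at 14d was 1.85 CPM. The share of all tested miRNAs without overlap between these ages is not given here. Lack of overlap is therefore not read as particular to these names or to miR-205a-5p and miR-31-5p. The ranges of miR-200a-3p, miR-200a-5p and miR-429-3p overlapped between those ages. Between 2 and 4 of the 11 epithelial names were at 0 in a library, and the 3p arms of miR-182 and miR-183 were each at 0 in 11 of the 12 libraries. miR-96-5p, of the same cluster, had 3 to 36 counts per library at 1d and 14d and was at 0 in 5 of the 6 libraries of 28d and 2y. Over the 12 libraries the sum had a Pearson r of -0.19 with miR-205a-5p and of 0.16 with miR-31-5p in log2, and a Spearman rho of 0.035 with both, given as a description. The muscle list (miR-1, miR-133 and miR-499) summed to 627 to 2318, 1734 to 4133, 743 to 3691 and 490 to 610 CPM, and the neural list (miR-9 and miR-124) to 79.8 to 282, 452 to 692, 29.1 to 356 and 34.7 to 52.2 CPM. Their most abundant members were miR-133a-3p and miR-9-5p. The neural list at 14d lay above its range at every other age, and the muscle list at 2y lay below its range at every other age and was highest in 14d replicate 1. Between 0 and 2 of the 8 muscle names and of the 4 neural names were at 0 in a library.

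The pancreas list, led by miR-375-3p, summed to 41.9 to 97.8, 361 to 565, 93.2 to 745 and 275 to 440 CPM in the order of age, with 1 to 5 of 7 names at 0. The hepatocyte list, led by miR-148a-3p with 95.2% of its counts, had 86889 to 131472, 39222 to 51165, 214452 to 512203 and 262071 to 291579 CPM, lowest at the age where miR-205a-5p and miR-31-5p were highest. Of its 5 tested members 0 rose and 4 fell for 14d against 1d, against 16.8% and 14.2% of all tested miRNAs. The 4 falls were both arms of miR-148a and of miR-101, so they are not 4 separate markers. The remaining member, miR-194-5p, was 6.31-fold higher at 14d and did not pass (adjusted p = 0.117). For 2y against 1d 3 of the 5 rose and 2 fell, against 14.5% and 13% of all tested miRNAs. The 2 falls were miR-148a-5p and miR-101-5p, whose 3p arms rose. The mesenchymal list, led by miR-143-3p with 80.7% of its counts, had 48123 to 58533, 28682 to 42493, 79535 to 259006 and 170165 to 268616 CPM, also lowest at 14d. The sum hides its other members. For 14d against 1d 4 of its 8 tested members rose and 0 fell, against 16.8% and 14.2% of all tested miRNAs. Their median log2 fold change was 0.56, and 0.49 over all tested. miR-143-3p itself was 2.00-fold lower and did not pass (adjusted p = 0.119). The leukocyte list, led by miR-146c-5p with 55.1% of its counts, had 16501 to 30546, 9809 to 17231, 42611 to 94325 and 39319 to 46587 CPM. Its members went both ways. For 14d against 1d 2 of its 9 tested members rose (miR-146a-3p and miR-146b-3p) and 2 fell (miR-142-5p and miR-142-3p). Of all tested miRNAs 16.8% rose and 14.2% fell. The median log2 fold change of the leukocyte members was 0.15. The endothelial list, led by miR-126-3p, had 18534 to 31462, 16170 to 20672, 37650 to 46415 and 30714 to 37192 CPM. Over the 7 lists of other cell types 37 members could be tested. Of these 37, 14 passed at 14d over 1d (8 higher and 6 lower), where 31% of all tested miRNAs passed. At 28d over 14d 15 of the 37 passed (13 higher and 2 lower), where 28.1% of all tested miRNAs passed. None passed at 2y over 28d, as for all tested miRNAs (0%), where 10 of all tested were higher and 29 lower at an unadjusted p under 0.05. At 2y over 1d 21 of the 37 passed (16 higher and 5 lower), where 27.5% of all tested miRNAs passed. DESeq2 called 4 of the 37 at 2y over 28d, where it called 7 higher and 10 lower of all 345 tested. Over the 12 libraries the leukocyte sum had a Pearson r of -0.86 with miR-205a-5p and of -0.85 with miR-31-5p in log2. The endothelial sum had -0.79 and -0.85, the hepatocyte sum -0.73 and -0.87, and the mesenchymal sum -0.68 and -0.84. The muscle sum had 0.63 and 0.53, the neural sum 0.45 and 0.76, and the pancreas sum 0.06 and 0.08. These too are given as a description. The part of other cell types in the levels of miR-205a-5p and miR-31-5p was not tested.

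The miRNAs whose log2 CPM over the 12 libraries was most like that of miR-205a-5p were sought among 173 pigeon names of at least 10 CPM on average. They were miR-15c-5p (Pearson r = 0.93), miR-92-3p (0.92), miR-128-5p (0.92), miR-454-5p (0.90) and miR-181b-5p (0.89), and miR-31-5p came in place 9. miR-15c-5p averaged 2180 ± 361, 2921 ± 834, 663 ± 226 and 584 ± 130 CPM (SD, n = 3) at 1d, 14d, 28d and 2y, so it moved far less than miR-205a-5p while keeping the same order of ages. Most like miR-31-5p were let-7f-5p (r = 0.97), miR-92-3p (0.91), let-7d-3p (0.91), miR-2954-5p (0.87) and miR-15c-5p (0.87), with miR-205a-5p in place 6. let-7f-5p averaged 173 ± 51.8, 528 ± 365, 90.4 ± 30.3 and 66.1 ± 10.5 CPM, and it too was highest in 14d replicate 1, at 949 CPM. miR-92-3p and miR-15c-5p were in both sets. These are likenesses over libraries that share ages and depths, with no test.

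**Figure D5:**
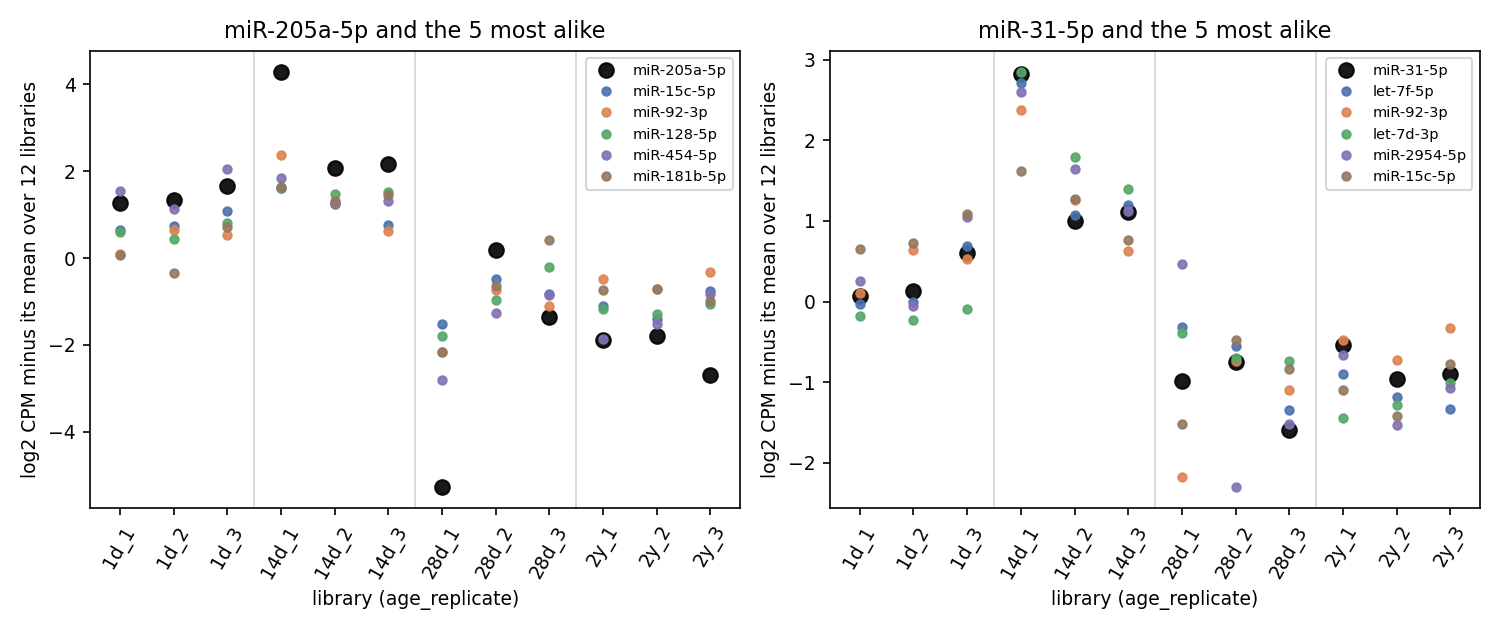
log2 CPM minus its mean over the 12 libraries (vertical axis) for miR-205a-5p and miR-31-5p in black and for the 5 miRNAs with the highest Pearson r to each, by library. miR-205a-5p spans a wider range than the miRNAs most like it, from 28d replicate 1 at 2.67 CPM to 14d replicate 1 at 2250 CPM, and let-7f-5p follows miR-31-5p with r = 0.97.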

How the data were processed

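Small RNA of 12 pigeon livers was sequenced, per the labels' protocols after TRIzol extraction and gel selection, as 50 bp single-end reads on a HiSeq 2500. Values as deposited are whole-number counts, 1 column per library and 1 row per mature name, not normalized. The submitters' processing notes name Bowtie. Its version, the genome build and how reads with several matches were handled are not stated there. Predicted names are numbered 1 to 159 as a series, so number 31 among them is not miR-31.

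Counts were fitted with edgeR 4.0.16 in R 4.3.3 (filterByExpr, TMM, 1 mean per age, robust quasi-likelihood, all 12 libraries), calling a miRNA at a p under 0.05 after Benjamini-Hochberg adjustment. DESeq2 1.42.0 was an alternative. Log2 CPM used a prior count of 2. The SE of a fold change is its size divided by the square root of F, with the spread estimated over all 12 libraries. Scripts were tested on simulated counts that varied less than these data, so that test does not show how the fit behaves at the spread seen here. Named are all members, epithelial miRNAs of at least 100 CPM at any age, the most abundant miRNA of each other list and the 5 most alike; other epithelial names were singled out after their values were seen. The members and lists were chosen with earlier results of these data known. No p is therefore given for the members, and the p values of list members are descriptive.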

Additional observations from a re-analysis of the deposited data

Results flagged for a closer look

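Counts also lay under names of the miR-205 family that carry the conserved prefix and were outside the members. Of 4 such names 3 exceeded the limit of 3 counts that a count of 0 allows in a library. conserve-cli-miR-205c-5p reached 19 counts in 14d replicate 1, conserve-cli-miR-205c-3p 12 counts in 2y replicate 2 and conserve-cli-miR-205a-3p 12 counts in 14d replicate 3. The last had 39 counts in all, against 4 for miR-205a-3p under its pigeon name. The 4 names together held 89 counts and the 5 members 31223.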

How the results depend on the processing

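For miR-205a-5p and miR-31-5p the direction held under all 18 alternatives in each comparison other than that of 2y with 28d. For 2y against 28d the log2 fold change of miR-205a-5p turned to 0.27 without 28d replicate 2. With library totals miR-31-5p had -4.00 for 28d against 14d and -2.43 for 2y against 1d. Totals moved the median of all tested miRNAs by -0.31 (14d over 1d), -1.01 (28d over 14d), 0.04 (2y over 28d) and -1.30 (2y over 1d). They gave 6 epithelial falls for 28d against 14d, 0 rises and 5 falls for 2y against 1d, and 10 called members of the other lists for 2y against 1d. Calls over all tested miRNAs with library totals and with no filter are given below. With no filter there were 0 epithelial rises for 14d against 1d, 1 fall for 28d against 14d, 0 rises for 2y against 1d and 10 calls in the other lists for 2y against 1d. Epithelial falls for 2y against 1d were 2 with relative log expression, 3 with DESeq2, 2 with the 6 libraries alone and 0 with the replicate block. Of all 345 tested, 50, 70, 64 and 35 fell in these settings. DESeq2 gave 1 epithelial fall for 14d against 1d and 4 calls in the other lists for 2y against 28d, and the 6 libraries alone gave 1 epithelial fall for 28d against 14d. The cause of these changes was not tested.

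Without any 1 library, miR-205a-5p ranged from 0.54 to 2.07 for 14d against 1d, and miR-31-5p from 0.62 to 1.83 there. The ranges were -5.49 to -3.24 and -3.21 to -2.25 at 28d over 14d, -1.29 to 0.27 and 0.08 to 0.71 at 2y over 28d, and -3.65 to -3.24 and -1.22 to -0.88 at 2y over 1d. Epithelial falls ranged from 0 to 3 for 28d against 14d and from 0 to 3 for 2y against 1d, and rises from 0 to 1 for 2y against 1d. Calls in the other lists ranged from 7 to 18, 12 to 16, 0 to 1 and 12 to 25 in the order above. The log2 ratio of the major arms, whose refits were chosen after seeing the data, ranged from -0.088 to 0.12 for 14d against 1d (-0.088 without 14d replicate 1 and -0.0030 without 1d replicate 3), from -3.27 to -0.59 for 28d against 14d, and from -1.92 to 0.76 for 2y against 28d (0.76 without 28d replicate 2 and 0.42 without 28d replicate 3).

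The main fit did not pair birds by replicate number. Deviations of same-numbered libraries from their age means correlated above 0.1 in 6 of 18 pairs (r from -0.10 to 0.37). Different-numbered pairs were not set beside them, so these values do not settle whether the numbers mark a pairing. With the replicate block, 70, 75, 0 and 81 of all tested miRNAs passed, against 107, 97, 0 and 95 without it. Calls also changed with no filter, where 937 names were tested. They were 15 higher and 33 lower at 14d over 1d, 37 and 19 at 28d over 14d, and 28 and 36 at 2y over 1d. With library totals they were 30 and 48, 18 and 98, and 12 and 110. DESeq2 called 7 and 10 at 2y over 28d, and the 6 libraries alone gave 38 and 31 at 28d over 14d. Without any 1 library, with 385 to 410 miRNAs tested, 50 to 118, 61 to 91, 0 to 3 and 71 to 107 passed in the same order. The count moved over 1.5 times without each library of 1d and 14d at 14d over 1d, without 14d replicate 1 or 2 at 28d over 14d, and without each library of 28d at 2y over 28d. Counts of 14 to 117 for miR-31-5p at 28d, and of at most 62 for miR-205b-5p, limit their precision.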
